A study of Mus musculus with 8 samples.

Results

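The loss of Gadd45a in cells that already lack Ing1 was examined by comparing 2 arrays of fibroblasts labelled DKO, a double knockout of Ing1 and Gadd45a, with 2 arrays labelled Ing1-/-. These are 4 of the 8 arrays of the series. Its other arrays are 2 labelled Gadd45a-/- and 2 labelled wild type (WT). The cells were mouse embryonic fibroblasts, primary cells grown from male C57BL/6 embryos (E15.5) and collected confluent at passage 3. All DKO and Ing1-/- cells lack Ing1 per their labels, so their labels differ by the Gadd45a knockout alone. A probe was kept when its detection p was under 0.01 on both arrays of DKO or of Ing1-/-, which left 14394 of 45281 probes, covering 8464 named genes.

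Gadd45a encodes a small stress-induced protein that binds partners such as PCNA, p21 and the kinase MEKK4, and that has been placed in cell cycle arrest, p38 and JNK signalling, DNA repair and active DNA demethylation. Ing1 encodes a chromatin reader whose plant homeodomain finger binds trimethylated lysine 4 of histone H3, and ING1 has been reported to recruit GADD45A to promoters. Fibroblasts from embryos are a mixture of mesenchymal cells, and cells of other lineages can be carried along in early passages.

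The design text speaks of duplicate samples from each fibroblast line. A genotype may thus be represented by a single line, in which case its effect and that of the line cannot be told apart, and each p-value then reflects array-to-array spread that may be technical. In bulk RNA, fewer cells of a type and less RNA per cell cannot be told apart either. Per array, 14277 to 14778 probes were above background. Across the kept probes Pearson's r was 0.9939 between the DKO arrays and 0.9918 between the Ing1-/- arrays, against 0.9848 to 0.9889 between a DKO and an Ing1-/- array. All 16 fibroblast markers on the array were above background on at least 1 array, and 14 were measured here.

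The promoters of 3 genes that rose are printed because the text turns on them and because each holds a short match to a transcription factor motif. They cover 250 bases before to 50 bases after the annotated start, come from RefSeq (build GRCm38.p6) and read 5′ to 3′ on the gene's own strand, which is the minus strand for all 3. Capitals mark the motif, which was chosen after sequences and values had been seen. The Gadd45a window is chr6:67037358-67037657, and its capitals mark the octamer ATGCAAAT on either strand.
Gadd45a: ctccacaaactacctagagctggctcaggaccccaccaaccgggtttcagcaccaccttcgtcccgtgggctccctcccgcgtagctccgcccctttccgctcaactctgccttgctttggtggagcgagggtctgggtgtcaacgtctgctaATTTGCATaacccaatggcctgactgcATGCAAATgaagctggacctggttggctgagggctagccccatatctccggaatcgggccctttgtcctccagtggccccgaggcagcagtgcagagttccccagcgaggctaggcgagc
The Cck window is chr9:121495645-121495944, with the E-box CACGTG in capitals.
Cck: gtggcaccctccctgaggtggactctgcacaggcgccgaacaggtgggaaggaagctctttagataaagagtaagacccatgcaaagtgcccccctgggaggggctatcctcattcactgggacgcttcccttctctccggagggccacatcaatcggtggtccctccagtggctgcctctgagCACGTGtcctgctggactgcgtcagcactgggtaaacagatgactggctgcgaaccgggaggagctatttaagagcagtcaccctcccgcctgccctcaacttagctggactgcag
The Il11 window with a match is chr7:4778092-4778391, with the AP-1 motif TGANTCA in capitals.
Il11: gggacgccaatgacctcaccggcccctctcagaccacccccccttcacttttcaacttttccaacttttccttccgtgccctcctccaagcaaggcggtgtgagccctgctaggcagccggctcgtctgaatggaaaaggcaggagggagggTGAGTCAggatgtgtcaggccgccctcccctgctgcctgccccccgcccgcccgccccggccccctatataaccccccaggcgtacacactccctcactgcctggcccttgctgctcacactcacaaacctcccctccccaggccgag
The octamer began 97 and 70 bases before the Gadd45a start, and 1.97% of 27025 genes with a promoter entry hold it. The E-box began 66 bases before the Cck start and is held by 8.09% of genes, and the AP-1 motif began 98 bases before this Il11 start and is held by 8.97%. A second annotated Il11 promoter held no match. Both strands were searched for each motif, and a match is a description of the sequence. Of the genes called higher that have an entry, 3 of 64 held the octamer, 8 of 64 the E-box and 6 of 64 the AP-1 motif. Those shares, 4.69%, 12.5% and 9.38%, stand beside 1.52%, 12.5% and 5.67% of the tested genes with an entry. Gadd45a, Cck and Il11 are themselves counted among the 64, each as a holder of the motif shown for it, so the shares are no test of the motifs.

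The targeted genes were read first. The brightest Gadd45a probe gave 11.78 and 11.67 on the DKO arrays, against 10.10 and 10.12 on the Ing1-/- arrays (log2 normalized intensity, as for every level below). On the same scale it gave 11.78 and 11.81 on the Gadd45a-/- arrays, against 10.91 and 10.69 on the WT arrays. The signal was thus higher on every array labelled as lacking the gene. In DKO the rise was 3.05-fold (log2 fold change 1.61 ± 0.12 (SE), limma adjusted p = 0.00249). A second probe read 11.05 and 10.76 in DKO, against 9.07 and 9.22 in Ing1-/-, a rise of 1.76 ± 0.14 (limma adjusted p = 0.00305). This goes against the label unless both probes target sequence that the knockout keeps. No source used here places the deletion or the probes, and a probe outside the deletion checks nothing. All directions are therefore those of arrays labelled DKO against arrays labelled Ing1-/-. The paralogues Gadd45b and Gadd45g, which share its stress-response role, differed by 0.17 and 0.12, and neither was called (limma adjusted p of 0.688 and 0.816). The single Ing1 probe was not above background on any array, with detection p from 0.0769 to 0.505, and checks no label.

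Between DKO and Ing1-/- 171 probes were called at a limma adjusted p under 0.05, which is 1.19% of the probes tested. Of these 104 were higher in DKO (0.723% of probes) and 67 lower (0.465%). With the brightest probe standing for each gene, 75 genes rose (0.886%) and 45 fell (0.532%). The median size of a called difference was 1.01 on the log2 scale, and 89 called probes differed at least 2-fold. Of the calls 25 were above background on neither Ing1-/- array and 17 on neither DKO array. Such probes entered the test through their bright genotype, and their folds are given as bounds, the brighter mean against the dim genotype's own signal or the lowest signal above background, whichever was higher.

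The number of calls depended on every array of the comparison. It was 17 or 11 without DKO replicate 1 or 2 and 24 or 16 without Ing1-/- replicate 1 or 2, where the lone array left is assumed to vary like the other genotypes. Without a Gadd45a-/- array it was 142, and without a WT array 201. Among 51 called probes of the genes named here, 7 stayed called whichever of the 8 arrays was left out: Cck, both Gadd45a probes, the brightest Col2a1 probe, Dmpk, Smoc1 and Erdr1. None of the 51 changed direction. For the others the arrays whose omission ended the call are named beside them, with the highest limma adjusted p reached. Further probes of a gene that are given without an SE were not examined in this way, save for the Col2a1 probe with a rise of 1.81.

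**Figure D1:**
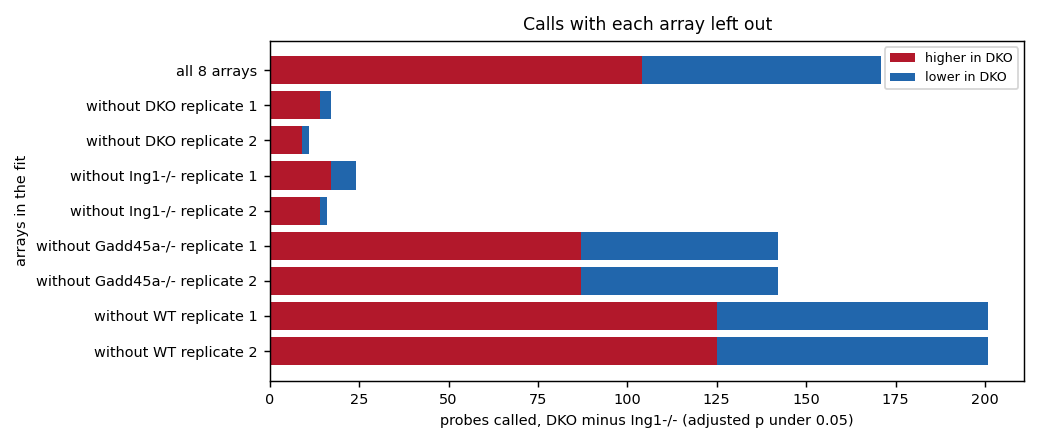
Horizontal bars count the probes called between DKO and Ing1-/- (limma adjusted p under 0.05), split into higher and lower in DKO, for all 8 arrays and with each array left out in turn. All 8 arrays give 171 calls, and leaving out any 1 DKO or Ing1-/- array leaves 11 to 24.

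The genes that rose most in DKO included a secreted peptide, an X-linked gene, bone and cartilage genes and transporters. Cck, the precursor of the peptide hormone and neurotransmitter cholecystokinin, read 10.85 and 10.71 in DKO, against 8.57 and 8.65 in Ing1-/-. The groups did not overlap, which the rule for the largest rises required, and the rise was 4.50-fold (2.17 ± 0.11, limma adjusted p = 0.000436). Xlr4a, an X-linked lymphocyte-regulated gene with closely similar copies whose signals may not be separable, read 8.10 and 8.22 in DKO, against 5.58 and 5.69 in Ing1-/-. It was above background on neither Ing1-/- array and was at least 4.86-fold higher in DKO. Slco4a1, an organic anion transporter that carries thyroid hormone, read 6.92 and 7.26 in DKO and was above background on neither Ing1-/- array, at least 2.31-fold higher. Aqp5, a water channel, rose by 1.73 ± 0.20, and 1 Ing1-/- array had it above background. Dmpk, the kinase gene affected in myotonic dystrophy, read 9.37 and 9.59 in DKO and 7.86 and 7.90 in Ing1-/-, a rise of 1.60 ± 0.13 (limma adjusted p = 0.00305). Pkp1, a desmosomal plaque protein, rose by 1.54 ± 0.15. It was the single call among 4 measured epithelial markers, where 0.886% of all genes rose and 0.532% fell. Of the 4 differences 3 were above 0, and the median was 0.56, or 0.05 with no detection filter. Epcam was not above background on any array. The Xlr4a and Slco4a1 calls were lost without DKO replicate 2 (limma adjusted p = 0.0556 and 0.0644). The Aqp5 call was lost without DKO replicate 1 or 2 or Ing1-/- replicate 1 (limma adjusted p up to 0.116), and the Pkp1 call without DKO replicate 1 or 2 or Ing1-/- replicate 2 (limma adjusted p up to 0.073).

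**Figure D2:**
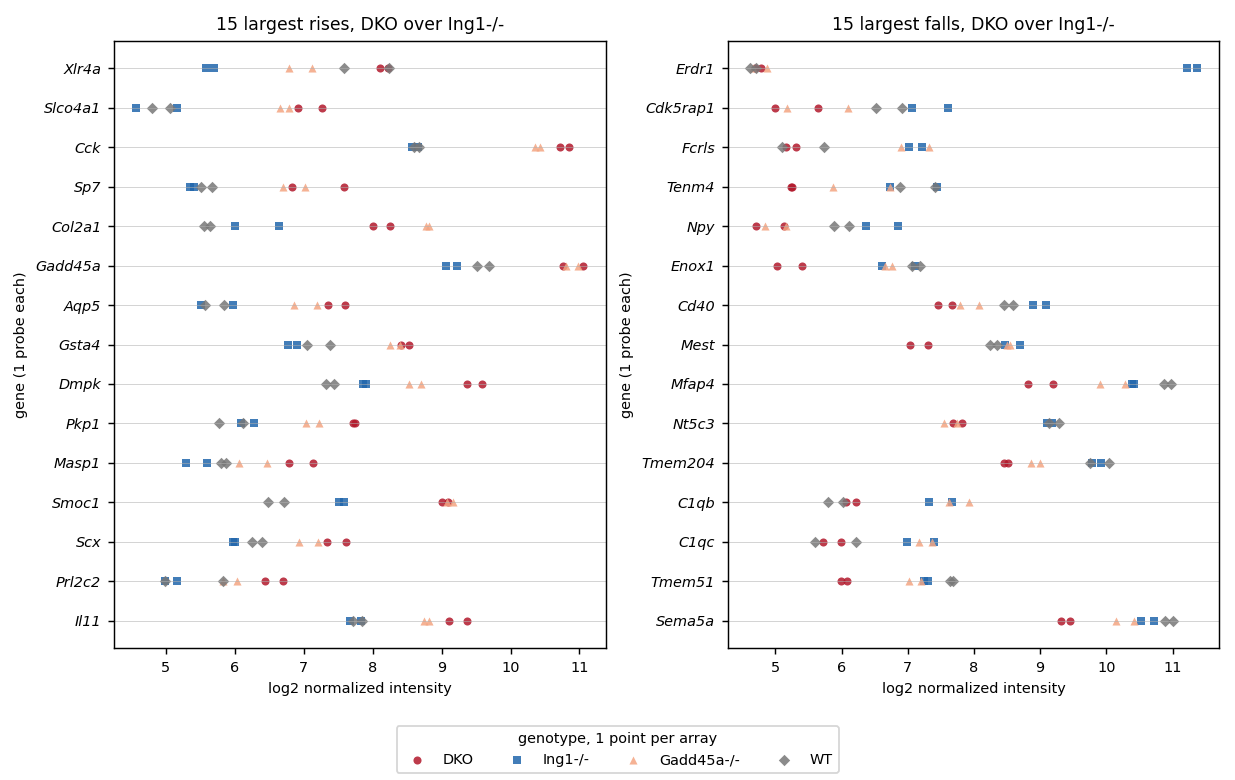
The log2 normalized intensity of each array (1 point per array, coloured by genotype) is drawn for the 15 genes with the largest rise (left) and the 15 with the largest fall (right) in DKO over Ing1-/-. The Erdr1 points of Ing1-/- lie near 11, and those of the other genotypes near 5.

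Cartilage, bone and tendon genes were among the rises. In a list of 30 cartilage and bone genes 6 were measured, of which 2 rose and none fell, with a median log2 difference of 0.40 against -0.01 over all genes tested. Of all genes 0.886% rose and 0.532% fell. Sp7 and Sox5 were kept through DKO alone. With probes above background on all 4 arrays, and with no detection filter, Col2a1 was the single call and the median was 0.08. Col2a1, the main collagen of cartilage, read 9.08 and 9.32 in DKO, against 7.43 and 7.57 in Ing1-/- at its brightest probe. All DKO values lay above all Ing1-/- values, a rise of 1.70 ± 0.13 (limma adjusted p = 0.00249). Its other probes rose by 1.81 and 1.68. Sp7, the osteoblast transcription factor osterix, read 6.82 and 7.58 in DKO and was above background on neither Ing1-/- array, at least 2.50-fold higher. The remaining members moved less and in both directions: Col9a3, a chain of cartilage collagen IX, differed by 0.44, Sox9, the master regulator of chondrocytes, by -0.28 and the parathyroid hormone receptor Pth1r by -0.41, with limma adjusted p from 0.356 to 0.771. Sox5, above background on neither Ing1-/- array, was not called (limma adjusted p = 0.727). Of the defining cartilage and bone genes Comp, Hapln1, Ibsp, Bglap and Alpl were not above background on any array. Outside that list Scx, the tendon transcription factor scleraxis, rose by 1.50 ± 0.15 and Smoc1, a matrix protein that modulates BMP signalling, by 1.50 ± 0.12. The call of the Col2a1 probe with a rise of 1.81 was lost without DKO replicate 1 or 2 (limma adjusted p up to 0.109), while the brightest probe stayed called. The Sp7 call was lost without DKO replicate 2 or either Ing1-/- array (limma adjusted p up to 0.116), and with no detection filter it missed the threshold (limma adjusted p = 0.0507). The Scx call was lost without DKO replicate 1 or either Ing1-/- array (limma adjusted p up to 0.0666).

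Genes of BMP and TGF-beta signalling were mostly above 0, and most did not pass one by one. Of 19 measured ligands, inhibitors and response genes 2 rose and none fell, 15 differences were above 0, and the median was 0.34. Among all 8464 genes tested 0.886% rose, 0.532% fell and 4036 differences were above 0. Both calls were Id genes, inhibitors of basic helix-loop-helix factors that BMP signals induce. Id1 read 10.60 and 10.73 in DKO and 9.65 and 9.60 in Ing1-/-, a rise of 1.04 ± 0.12 (limma adjusted p = 0.01). Id2 read 8.91 and 8.99 in DKO and 7.22 and 7.82 in Ing1-/-, a rise of 1.43 ± 0.21 (limma adjusted p = 0.0243), and its second probe was not called (0.87, limma adjusted p = 0.264). Among members that were not called, Tgfb2 differed by 0.60, Id4 by 0.58, the BMP antagonist Grem1 by 0.36 and Bmp4 itself by 0.15, with limma adjusted p from 0.121 to 0.766. Both Id calls were lost without any 1 of the 4 DKO and Ing1-/- arrays (limma adjusted p up to 0.118 for Id1 and 0.186 for Id2), and Id2 also with no detection filter (limma adjusted p = 0.0793).

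Secreted signals, detoxification genes and patterning factors gave further rises. Their counts stand beside 0.886% of all genes that rose and 0.532% that fell. Il11, a cytokine of the IL-6 family, read 9.11 and 9.37 in DKO, against 7.82 and 7.67 in Ing1-/-, and rose by 1.49 ± 0.13 (limma adjusted p = 0.00414). The antagonist of the interleukin 1 receptor, Il1rn, was at least 1.46-fold higher, and no other of 16 measured chemokine and cytokine genes passed at its brightest probe. Hgf, hepatocyte growth factor, passed at its dimmer probe (0.67, limma adjusted p = 0.0439) and gave 0.00 at its brightest (limma adjusted p = 0.994). In the oxidative stress and glutathione list 2 of 28 measured genes rose and none fell (median 0.16). They were the glutathione transferase Gsta4, at 8.41 and 8.52 in DKO and 6.78 and 6.90 in Ing1-/- (1.62 ± 0.14, limma adjusted p = 0.00412), and the quinone reductase Nqo1 (0.98 ± 0.17, limma adjusted p = 0.0385). Of 20 mesenchymal patterning factors Foxc2 rose by 1.08 ± 0.18 and the hindlimb factor Tbx4 by 0.87 ± 0.12, and none fell (median 0.01). Single calls came from other lists. Ccn5, a matricellular Wnt target, rose by 1.22 ± 0.16 and the adipogenic receptor Pparg by 1.17 ± 0.16. The ephrin receptor Epha2, listed as a p53 target, rose by 1.13 ± 0.16 and the myosin light chain kinase Mylk by 0.66 ± 0.11. Another Mylk probe rose by 0.72 (limma adjusted p = 0.0401), and a further one was not called (0.78, limma adjusted p = 0.0673). Of the genes outside the lists, the netrin receptor Unc5c rose by 1.37 ± 0.14, and 1 Ing1-/- array had it above background. Masp1, a lectin-pathway protease, rose by 1.08 at its brighter probe and was at least 2.12-fold higher at the dimmer. Prl2c2, a proliferin with near-identical copies that the probe may not separate, was at least 1.61-fold higher.

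Most of these calls rested on all 4 arrays. The Gsta4 call was lost without DKO replicate 2 (limma adjusted p = 0.0636), that of Il11 without DKO replicate 2 or Ing1-/- replicate 2 (up to 0.0556), and those of Epha2 and Unc5c without DKO replicate 1 or 2 or Ing1-/- replicate 2 (up to 0.182 and 0.0765). The calls of Il1rn, Nqo1, Tbx4, Ccn5, Pparg and Masp1 were lost without any 1 of the 4 arrays (limma adjusted p up to 0.28, for Nqo1), and those of Foxc2, Mylk and Prl2c2 also without either Gadd45a-/- array (limma adjusted p up to 0.281, for Mylk). With no detection filter Il1rn, Nqo1, Foxc2, Tbx4, Ccn5, Pparg, Epha2, Mylk and Prl2c2 were not called.

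**Figure D3:**
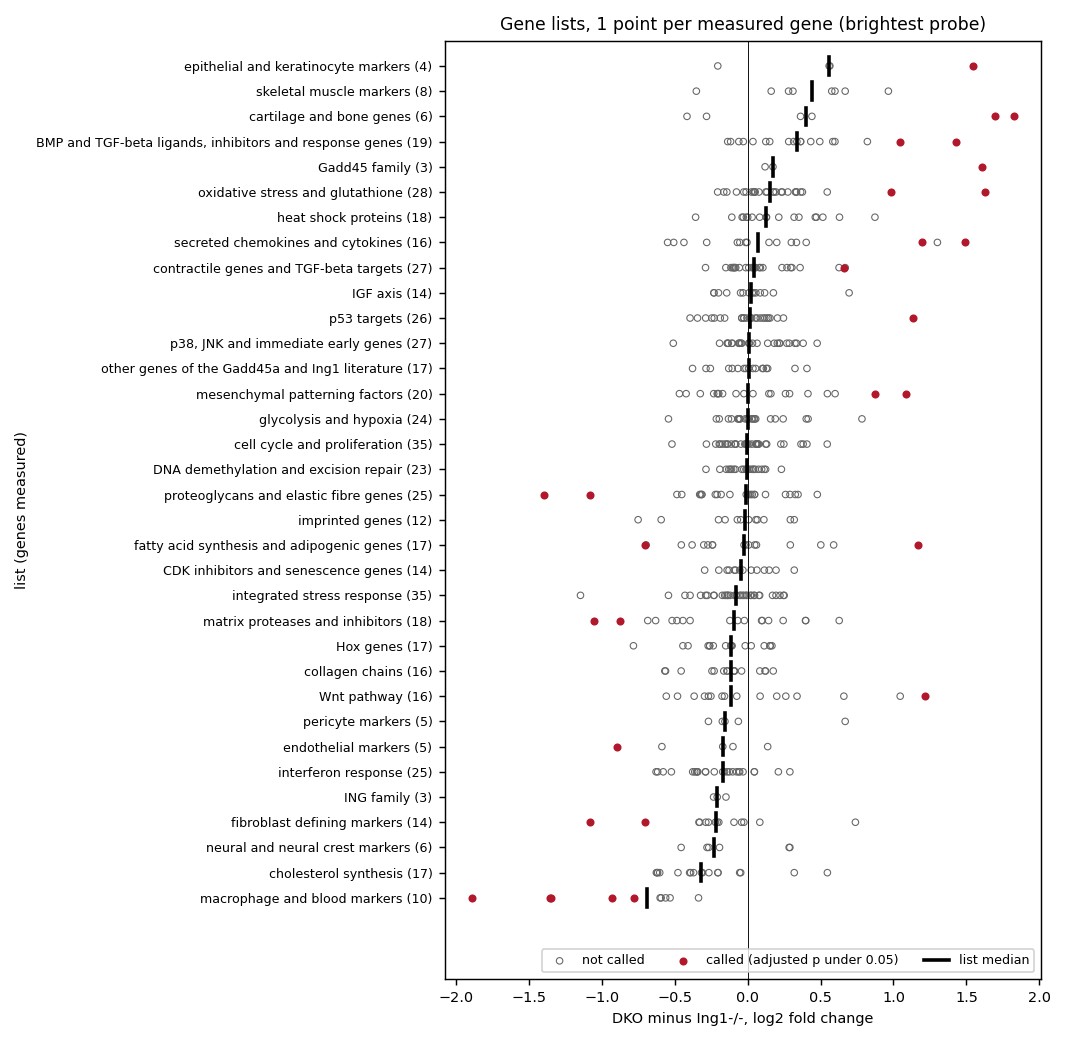
Each row is a gene list with the number of its measured genes, each point a gene's log2 fold change in DKO over Ing1-/- at its brightest probe, and each bar the list's median. Filled points passed the limma test. The macrophage and blood list has the lowest median (-0.69), with 5 of 10 genes called lower.

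Markers of macrophages and blood were lower in DKO. Of 31 listed markers 10 were measured. All 10 differences were below 0, 5 genes fell and none rose, and the median was -0.69. Among all 8464 genes tested 0.886% rose, 0.532% fell and 4428 differences were below 0. All 10 markers were above background on both Ing1-/- arrays but only 6 on both DKO arrays. The rest, the called Fcrls, Cx3cr1 and C1qc among them, thus entered through Ing1-/- alone. Fcrls and Cx3cr1 were above background on neither DKO array. With probes above background on all 4 arrays 2 were called lower and the median was -0.58, and with no detection filter 2 were called and it was -0.27. C1qb, a chain of complement C1q, read 6.07 and 6.22 in DKO, against 7.33 and 7.67 in Ing1-/-. It fell by 1.35 ± 0.17 (limma adjusted p = 0.0128), and the groups did not overlap, which the rule for the largest falls required. C1qc, another C1q chain, read 5.72 and 5.98 in DKO, against 6.99 and 7.40 in Ing1-/-, with 1 of the 2 DKO arrays above background (limma adjusted p = 0.0371). Fcrls, an Fc receptor-like gene of microglia and macrophages, was at least 2.28-fold lower in DKO, and the fractalkine receptor Cx3cr1 at least 1.59-fold lower. Laptm5, a lysosomal protein of blood cells, read 8.04 and 8.06 in DKO, against 8.79 and 8.87 in Ing1-/-, and fell by 0.78 ± 0.11. The other 5 were Lyz2 (-0.56, limma adjusted p = 0.0515), Cd52 (-0.60, 0.382), Fcer1g (-0.59, 0.137), Lyz1 (-0.53, 0.124) and Coro1a (-0.34, 0.477).

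The summed level of these 10 genes (linear normalized intensity) was 1766 to 1848 in DKO, against 2781 to 3078 in Ing1-/-. In the genotypes with Ing1 it was 3647 to 3829 in Gadd45a-/-, against 1936 to 2142 in WT. Of the 28 markers on the array 12 were not above background on any array, among them the defining macrophage markers Adgre1, Itgam and Aif1 and the leukocyte antigen Ptprc. The part that cell content has in other differences was not tested. The Fcrls, C1qb, Cx3cr1 and Laptm5 calls were lost without any 1 of the 4 DKO and Ing1-/- arrays (limma adjusted p up to 0.205, for Cx3cr1), and that of C1qc also without either Gadd45a-/- array (up to 0.268). With no detection filter Laptm5, Cx3cr1 and C1qc were not called, with median scaling Laptm5 and Cx3cr1, and with the authors' processed values or cyclic loess C1qc. Over the settings tried between 0 and 6 list members were called lower.

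**Figure D4:**
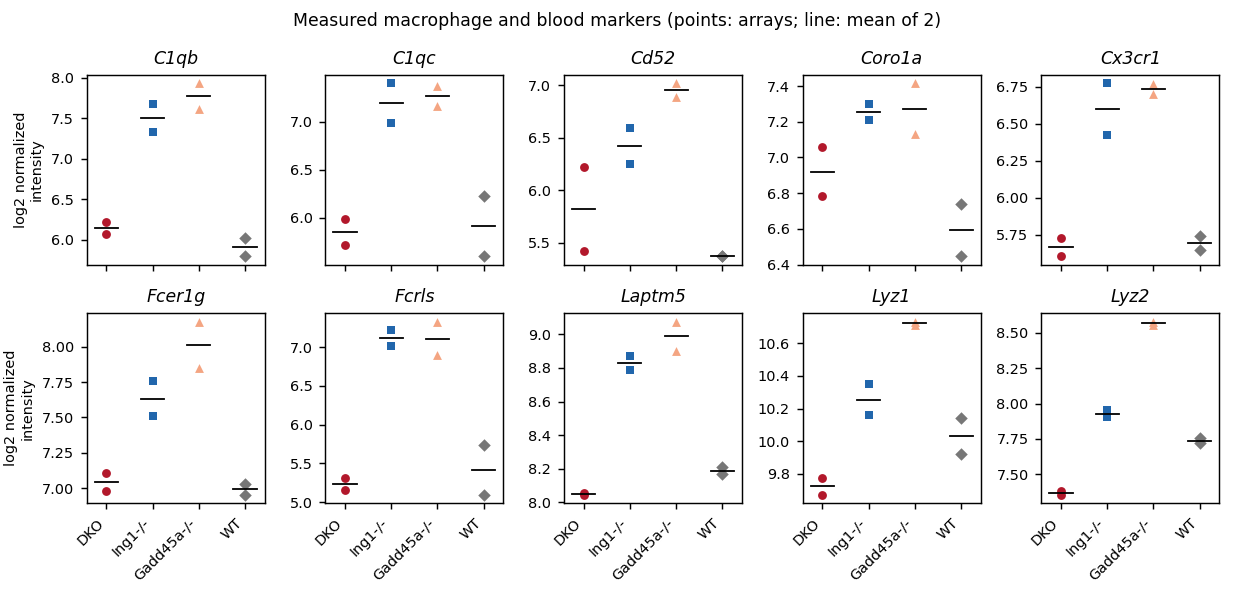
Each panel is 1 of the 10 measured macrophage and blood markers, with the log2 normalized intensity of the 2 arrays of DKO, Ing1-/-, Gadd45a-/- and WT as points and their mean as a line (axes differ between panels). Every DKO mean lies below its Ing1-/- mean.

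The proteoglycan, elastic fibre and protease lists held falls and no rise, where 0.886% of all genes rose and 0.532% fell. Of 25 measured proteoglycan and elastic fibre genes 2 fell and none rose (median -0.01). Dcn, the collagen-binding proteoglycan decorin, read 9.86 and 9.84 in DKO, against 10.87 and 10.99 in Ing1-/-. It fell by 1.08 ± 0.12 (limma adjusted p = 0.01), and its second probe fell by 0.90. Mfap4, a microfibril-associated glycoprotein, read 9.20 and 8.81 in DKO, against 10.38 and 10.42 in Ing1-/-, and fell by 1.39 ± 0.17 (limma adjusted p = 0.0127). Of 18 proteases and inhibitors 2 fell and none rose (median -0.09). The gelatinase Mmp9 fell by 1.05 ± 0.14, and the collagenase Mmp13, above background on neither DKO array, was at least 1.44-fold lower. None of 16 measured collagen chains outside cartilage passed, and the collagen VI chains Col6a1 and Col6a2 gave -0.57 and -0.56 (limma adjusted p of 0.0864 and 0.161). Of 14 measured fibroblast markers 2 fell, Dcn and the platelet-derived growth factor receptor Pdgfra (by 0.70 ± 0.13, limma adjusted p = 0.046). Among endothelial markers 1 of 5 fell, the VEGF receptor Flt1 (by 0.90 ± 0.13, limma adjusted p = 0.024), while Pecam1, Cdh5 and Kdr were not above background on any array. The Dcn, Mfap4, Mmp9, Mmp13 and Flt1 calls were lost without any 1 of the 4 DKO and Ing1-/- arrays (limma adjusted p up to 0.187, for Flt1), and that of Pdgfra also without either Gadd45a-/- array (0.293). With no detection filter Mmp9, Mmp13, Flt1 and Pdgfra were not called, and with median scaling Mmp13, Flt1 and Pdgfra.

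The largest fall belonged to Erdr1, a gene of the pseudoautosomal region whose repetitive surroundings make its probes hard to assign. Its changed probe read 4.78 and 4.70 in DKO, against 11.37 and 11.22 in Ing1-/-. It was above background on both Ing1-/- arrays and on none of the DKO, Gadd45a-/- or WT arrays, and was at least 41.3-fold lower in DKO (limma adjusted p = 3.7e-07). The second Erdr1 probe read 7.90 and 8.41 in DKO, against 9.12 and 8.53 in Ing1-/-, and was not called (-0.68, limma adjusted p = 0.271). This second probe was above background on neither WT array and was at least 3.71-fold higher in Gadd45a-/- over WT (limma adjusted p = 0.00158). The probes thus disagree. At the first the arrays of the Ing1-/- line stand apart from all others, and at the second the WT arrays do.

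Other falls were spread over unrelated functions. Mest, an imprinted hydrolase gene, read 7.30 and 7.04 in DKO, against 8.47 and 8.70 in Ing1-/-, and fell by 1.41 ± 0.14 (limma adjusted p = 0.00565), while its brightest probe gave -0.75 (limma adjusted p = 0.127) and another was at -0.97 with a limma adjusted p of 0.0946. Cd40, a TNF receptor family member, fell by 1.42 ± 0.15 at 1 probe and by 1.29 at another, and its remaining probe was not called (-0.99, limma adjusted p = 0.0851). Tenm4, a teneurin, was above background on neither DKO array at its 2 called probes, and was at least 2.23-fold lower at one and at least 2.21-fold lower at the other. The semaphorin Sema5a fell by 1.24 ± 0.14 and the membrane proteins Tmem204 and Tmem51 by 1.37 ± 0.14 and 1.24 ± 0.12. Enox1, a cell surface oxidase, was at least 1.91-fold lower. Cdk5rap1, a tRNA-modifying enzyme, was at least 2.65-fold lower at 1 probe, but its other probes were not called (-0.33 and -0.37). The Mest call was lost without DKO replicate 2 or Ing1-/- replicate 2 (limma adjusted p up to 0.0644), those of Cd40 and Enox1 without DKO replicate 1 or 2 or Ing1-/- replicate 2 (up to 0.0925 and 0.0963), and those of Tenm4, Sema5a, Tmem204, Tmem51 and Cdk5rap1 without any 1 of the 4 arrays (up to 0.262, for Cdk5rap1). With no detection filter Tenm4 and Cdk5rap1 were not called, nor was Tenm4 with cyclic loess or Cdk5rap1 with the authors' processed values.

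Genes near Gadd45a can differ through the flanking chromosome that a knockout carries. Within 25 Mb of it (mouse gene table, GRCm38.p6) 168 genes were measured, of which 1 rose and 2 fell at the brightest probe, with a median of -0.03. Over all genes 0.886% rose and 0.532% fell, so a few calls among this many genes are no result about the region. Gata2, a transcription factor, read 8.29 and 8.36 in DKO, against 7.16 and 7.16 in Ing1-/- (1.16 ± 0.12, limma adjusted p = 0.00661). Nt5c3, a pyrimidine nucleotidase, read 7.68 and 7.82 in DKO, against 9.11 and 9.18 in Ing1-/- (-1.39 ± 0.12, limma adjusted p = 0.00414). Npy, the neuropeptide Y precursor, was at least 1.60-fold lower in DKO. Dysf, the membrane repair gene dysferlin, was at least 1.79-fold higher at 1 probe (limma adjusted p = 0.0173), and its brightest probe was not called (0.62, limma adjusted p = 0.115). The Gata2 and Npy calls were lost without any 1 of the 4 arrays (limma adjusted p up to 0.125, for Npy), and the Nt5c3 call without DKO replicate 1 or 2 or Ing1-/- replicate 2 (0.0603). Whether sequence flanking the knockout has a part in these differences was not tested.

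Pathways in which Gadd45a and Ing1 have been placed held few or no calls, as lists of this length can when 0.886% of all genes rose and 0.532% fell. None of 27 p38, JNK and immediate early genes passed (median 0.01), none of 23 genes of DNA demethylation and excision repair (median 0.00), none of 14 CDK inhibitors and senescence genes (median -0.04), and none of 35 cell cycle genes (median 0.00). Of 26 p53 targets Epha2 alone passed. None of 3 other ING family genes passed, the largest difference being that of Ing3 (-0.23, limma adjusted p = 0.744).

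Stress and metabolic programmes leaned to one side in some lists without a call at the settings used here. Among all 8464 genes tested 4428 differences were below 0 and 4036 above. With the trended robust variance and with no background correction 4 and 2 cholesterol synthesis genes were called lower, and 3 and 2 heat shock genes higher. Of 25 measured interferon response genes 21 were below 0 (median -0.17). The largest were Ifit3, at 6.25 and 6.11 in DKO and 6.73 and 6.88 in Ing1-/- (-0.63, limma adjusted p = 0.101), and the ubiquitin-like Isg15 (-0.62, limma adjusted p = 0.24). The interferon-stimulated response element core is a pair of GAAA stretches with NN between them. It was found in the promoters of 10 of the 23 measured interferon genes with an entry (43.5%). It was held by 3.99% of all genes and 3.47% of tested genes with an entry. Of 35 genes of the integrated stress response 24 were below 0 (median -0.08). Fgf21, a secreted stress hormone, was above background on neither DKO array (limma adjusted p = 0.134), and Trib3 gave -0.54 (limma adjusted p = 0.254). The C/EBP-ATF core TGATGNAAT was found for 5 of 30 such genes (16.7%), against 1.08% of all and 0.521% of tested genes with an entry. Each of these motifs was chosen for its list. The shares thus describe the lists and say nothing about DKO against Ing1-/-. Of 17 cholesterol synthesis genes 15 were below 0 (median -0.32), with Mvd and Dhcr7 both at -0.62 (limma adjusted p = 0.121 and 0.147). Of 8 skeletal muscle markers 7 were above 0 (median 0.44), but only 5 were above background on both Ing1-/- arrays against 8 on both DKO arrays. The median was 0.31 with probes above background on all 4 arrays and 0.17 with no detection filter, while Myod1, Myog and Ckm were not above background on any array. Lists of 24 glycolysis and hypoxia genes, 18 heat shock genes, 17 Hox genes, 14 IGF axis genes, 12 imprinted genes at their brightest probe, 6 neural markers, 5 pericyte markers and 17 other genes of the Gadd45a and Ing1 literature also held no call.

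The same knockout can be read in cells with Ing1 from Gadd45a-/- minus WT, which shares no array with DKO minus Ing1-/-. On the same probes 185 were called there, 1.29% of those tested, of which 129 were higher (0.896%) and 56 lower (0.389%). In both comparisons 58 probes were called in the same direction, 45 higher and 13 lower. This was 33.9% of the calls in DKO minus Ing1-/- and 31.4% of those in Gadd45a-/- minus WT. Another 6 were called in opposite directions. Of the 171 calls 148 had the same sign in Gadd45a-/- minus WT (86.5%), against 52.2% of all probes tested. Across all probes the log2 fold changes of the comparisons correlated with Pearson's r of 0.212, and across the 171 called ones with 0.625. Probes are not independent replicates, and the arrays were normalized together.

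Cck rose by 2.17 in DKO over Ing1-/- and by 1.75 in Gadd45a-/- over WT, where it read 10.43 and 10.35 in Gadd45a-/- and 8.60 and 8.68 in WT. Dmpk gave 1.60 and 1.24 in the same order. Neither Unc5c nor Aqp5 was above background on a WT array. Unc5c rose by 1.37 in DKO over Ing1-/-, and in Gadd45a-/- it exceeded WT at least 1.93-fold. Its other probe was called in neither comparison (limma adjusted p of 0.134 and 0.0676). Aqp5 rose by 1.73 in DKO over Ing1-/-, and in Gadd45a-/- it exceeded WT at least 2.15-fold. Slco4a1, above background on no Ing1-/- or WT array, was at least 2.31-fold higher in DKO over Ing1-/- and at least 1.74-fold higher in Gadd45a-/- over WT. Smoc1 gave 1.50 and 2.52, and Nt5c3 gave -1.39 and -1.57. Each of these 7 genes was called in both comparisons at the probe whose differences are given (limma adjusted p in Gadd45a-/- minus WT from 0.000224 to 0.0232). The rise of Id1 was 1.04 in DKO and 0.92 in Gadd45a-/-, and the fall of Mmp9 1.05 and 1.20, also called in both. Over the 8 arrays left out in turn, the 58 shared calls became 9 to 46.

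**Figure D5:**
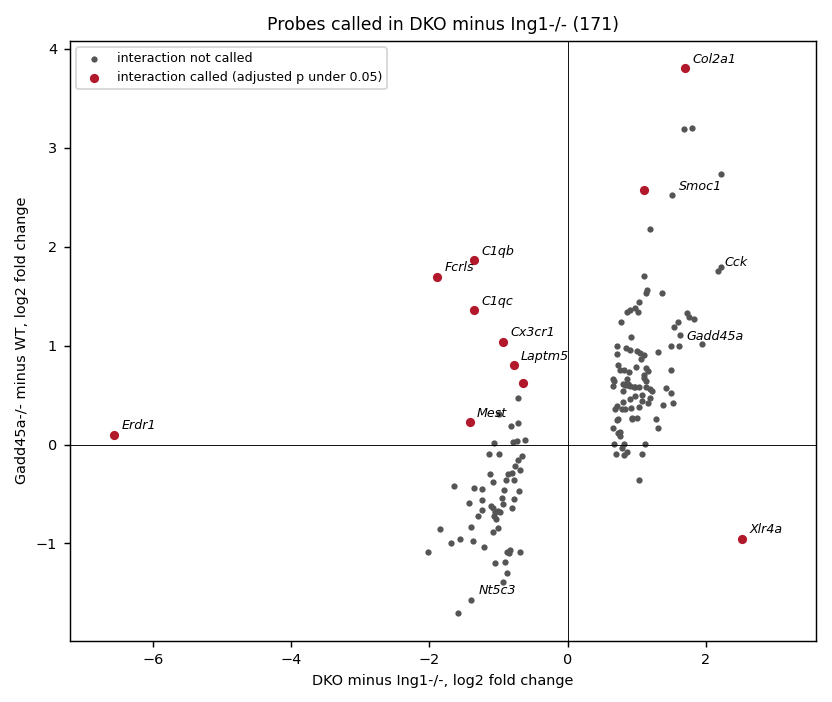
Each point is 1 of the 171 probes called in DKO over Ing1-/-, with that log2 fold change on the horizontal axis and the Gadd45a-/- over WT log2 fold change on the vertical axis. Red points also passed the test of the difference between the comparisons. In all 148 points share their sign, and Fcrls, C1qb, C1qc, Cx3cr1, Laptm5 and Xlr4a lie in the quadrants of opposite sign. Points of probes not above background in a genotype, Erdr1 and Xlr4a among them, show fitted differences and not exact sizes.

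The difference between the comparisons was tested as an interaction, DKO minus Ing1-/- minus the Gadd45a-/- over WT difference. It was called for 21 probes (0.146% of those tested), 2 above 0 and 19 below, and 11 of them were also called in DKO minus Ing1-/-. The macrophage markers had opposite signs. C1qb read 7.93 and 7.62 in Gadd45a-/- and 5.80 and 6.02 in WT, with 1 WT array above background, so that it was higher there by 1.86 and fell by 1.35 in DKO over Ing1-/- (interaction -3.22, limma adjusted p = 0.00725). Of the 10 measured markers 8 were called higher in Gadd45a-/- over WT and 5 lower in DKO over Ing1-/-, and 7 had a called interaction. Over all 8464 genes tested these counts were 93, 45 and 14. All 10 markers were above background on both Ing1-/- arrays but only 6 on both DKO arrays. The rest thus entered through Ing1-/- alone, a filter that favours values below 0. Col2a1 at its brightest probe moved the same way in both, but by 3.81 in Gadd45a-/- over WT and by 1.70 in DKO over Ing1-/- (interaction -2.11, limma adjusted p = 0.00998). The interaction was not called at its other probes (-1.39 and -1.51, limma adjusted p of 0.193 and 0.165). Bmp4, a bone morphogenetic protein, read 8.10 and 8.16 in DKO, 7.93 and 8.03 in Ing1-/-, 8.59 and 8.24 in Gadd45a-/- and 6.30 and 6.51 in WT. The WT arrays alone were low, and the interaction was -1.86 (limma adjusted p = 0.0254). The total of 21 fell to between 1 and 4 without any 1 DKO or Ing1-/- array and to 1 or 2 without a Gadd45a-/- array, and was 21 or 7 without WT replicate 1 or 2. The C1qb interaction was lost without DKO replicate 1 or Gadd45a-/- replicate 1, and that of Bmp4 without any 1 array. That of Col2a1 was lost without DKO replicate 1, either Ing1-/- array or either Gadd45a-/- array.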

How the data were processed

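RNA of 8 fibroblast samples was measured on 1-colour Illumina BeadArrays. The deposited non-normalized table gives each probe's average intensity and a detection p-value, per the file headers. GenomeStudio 2011.1 is named, with no role, in the submitters' processing notes. A deposited table of the authors' processed intensity values served as an alternative. It keeps each array's rank order, but no source used here states how it was scaled, and no slide or scan was recorded.

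The neqc function of limma 3.58.1 (R 4.3.3) corrected and normalized the intensities (negative controls inferred from detection p-values, offset 16, quantile, log2). The linear model gave each genotype a mean and used all 8 arrays (residual df 4, prior df 3.92). Benjamini-Hochberg adjustment ran over 14394 probes. The offset understates folds of dim probes. The platform annotation gave 1 symbol for 34885 probes, several for 18 and none for 10378, and 34807 matched the mouse gene table (GRCm38.p6) by identifier. Of 85 named genes 65 had a promoter entry. The fit was tested on simulated data.

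Members and lists were chosen with earlier results of these data known. Named are Gadd45a and Ing1, the 15 largest rises and 15 largest falls without overlap, up to 6 called members of a list or 2 uncalled ones, and the 10 leading genes called in both comparisons and in the interaction. Genes named beyond that rule were chosen after their values were seen. Replicate numbers were not used as pairs in the main fit. The deviations of same-numbered arrays from their group means correlated at -0.103 between DKO and Ing1-/-. Between other genotypes this ran from -0.08 (DKO and Gadd45a-/-) to 0.207 (Ing1-/- and Gadd45a-/-) and 0.279 (Ing1-/- and WT). Alternatives covered background, scaling, filters, blocks, variance models, the samples fitted and each array left out. The number of arrays limits the precision.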

Additional observations from a re-analysis of the deposited data

Results flagged for a closer look

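For 11 of the named genes the DKO minus Ing1-/- difference and the Gadd45a-/- minus WT difference were themselves different by the interaction test (log2 scale, limma adjusted p under 0.05). All but Laptm5 were named because they were the 10 leading genes of that test, so the count is no result about the named genes. Over all probes tested 21 were called for it (0.146%). The interaction was -6.66 for Erdr1 (limma adjusted p = 5.04e-06), the only one kept whichever array was left out. The second Erdr1 probe, above background on neither WT array, gave -3.57 (limma adjusted p = 0.00998) and was not examined with arrays left out. Xlr4a gave 3.48, the sole value above 0 among the 11, with a rise of at least 4.86-fold in DKO over Ing1-/- and a log2 difference of -0.95 in Gadd45a-/- over WT (limma adjusted p = 0.105). Macrophage markers gave -3.58 (Fcrls), -3.22 (C1qb), -2.70 (C1qc), -1.97 (Cx3cr1), -1.61 (Fcer1g) and -1.58 (Laptm5). Col2a1 gave -2.11, Bmp4 -1.86 and Mest -1.64. The interaction was not called at the other Col2a1 probes (-1.39 and -1.51, limma adjusted p of 0.193 and 0.165). Nor was it called at the brightest Mest probe (-0.64, limma adjusted p = 0.508) or at another (-1.08, limma adjusted p = 0.362). The C1qb value was lost without DKO replicate 1 or Gadd45a-/- replicate 1. The Fcrls, Xlr4a and C1qc values were lost without any 1 DKO, Ing1-/- or Gadd45a-/- array. That of Col2a1 was lost without the same arrays save DKO replicate 2. Laptm5 was kept only without WT replicate 1 and Cx3cr1 only without WT replicate 1 or Ing1-/- replicate 2. Bmp4, Mest and Fcer1g were lost without any 1 array. Erdr1, Xlr4a, Fcrls and Cx3cr1 were above background on neither array of at least 1 genotype, so the sizes of their interactions rest partly on background signal. Genotype and line cannot be told apart in these values.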

How the results depend on the processing

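No called probe among the named genes changed direction under any alternative. The 171 calls (104 higher, 67 lower) became 262 (122 lower) with no background correction, 57 (35 higher, 22 lower) with no detection filter, 279 (132 lower) with a trended robust variance and 299 (167 higher, 132 lower) with array weights. Median scaling gave 41 lower. With each array left out in turn the total ran from 11 to 201, the higher calls from 9 to 125 and the lower from 2 to 76. The 21 interaction calls became 36 with no background correction, 6 with no detection filter, 37 with the trended robust variance, 11 with the replicate block and 12 with the crossed replicate block, and 1 to 21 with an array left out. The 58 calls shared with Gadd45a-/- minus WT became 89 with no background correction, 25 with no detection filter and 97 with the trended robust variance, and 9 to 46 with an array left out. Other alternatives kept these counts within 1.5 times. The replicate block gave 159 calls and, with the pairing of DKO and Ing1-/- arrays crossed after seeing the data, 172. With no background correction the fold changes, on the linear scale, of 20 of the 51 called named probes moved by a factor over 1.5, with offset 50 those of 7 and with the authors' values those of 9. The causes were not tested. Of 51 called named probes 20 were lost with no detection filter, which raises the probes tested to 45281. Others lost were Mylk, Pdgfra, Laptm5, Mmp13, Flt1 and Cx3cr1 with median scaling, Il1rn, Mmp13 and Cx3cr1 with no background correction, Foxc2, Nqo1, Pdgfra, C1qc and Cdk5rap1 with the authors' values, Prl2c2, Pdgfra, C1qc and Tenm4 with cyclic loess, Mmp13 and Cx3cr1 with the trended robust variance, Mylk and Pdgfra with only the 4 DKO and Ing1-/- arrays, Nqo1, Mylk and Pdgfra with either block, Cdk5rap1 with the crossed one, and Pdgfra with probes above background in any of the 4 genotypes. A signal near background limits 25 calls dim in Ing1-/- and 17 dim in DKO to bounds.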
